A study of Mus musculus with 3 samples.

Results

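The genes described here are 10 angiogenic growth factors and receptors of the mouse heart: Vegfa, Vegfb, Angpt1, Angpt2, Apln, Kdr, Flt1, Tek, Aplnr and Esm1. They were chosen by symbol from the 32285 genes in the spatial transcriptome files, and all 10 were found. Visium libraries of C57BL/6 mouse hearts were used, with a single section for each of the conditions sham, I/R and SBP, so that a condition is 1 section. All mice were gavaged for 7 days before the operation, with vehicle in sham and I/R and with Shexiang Baoxin Pill (SBP, also called MUSKARDIA) in the SBP group. Both I/R and SBP hearts had a ligature on the left anterior descending artery for 30 min and 24 h of renewed flow, and sham hearts were operated on without it. The comparison asks how the angiogenic programme stood 1 day after reperfusion, and where in the section.

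In the heart, capillary endothelium lies beside nearly every cardiomyocyte, and muscle cells and endothelium signal to each other through secreted ligands and endothelial receptors. VEGF ligands drive endothelial growth and permeability through the receptor Kdr (VEGFR2), while Flt1 (VEGFR1) binds VEGF-A and VEGF-B and can act as a decoy. Angiopoietin 1 stabilizes vessels through the receptor Tek (TIE2), angiopoietin 2 can counter it and is released by activated endothelium, and apelin, made by sprouting endothelium and induced by low oxygen, acts on the receptor Aplnr.

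A Visium spot holds RNA of several cells of different types. The level of a gene was its sum of unique molecular identifiers (UMIs) per 1000000 UMIs of the section (CPM). With a minimum of 200 detected genes per spot, 2234 sham, 2082 I/R and 1960 SBP spots were kept, with 25118258, 30238530 and 21631280 UMIs. Mitochondrial genes took between 44.3% and 48.6% of them. Between 1207 and 1568 spot barcodes were shared by each pair of sections, since a barcode names a position on the slide and not a cell. Intervals are at the 95% level and cover counting error only. No condition has a replicate, so that no test between conditions exists, and differences between animals, section planes and treatments cannot be told apart. In sums over spots, fewer cells of a type and less RNA per cell also cannot be told apart. A gene was called higher or lower where the ratio reached 1.5-fold and its interval left out 0 on the log2 scale, among genes with at least 50 UMIs in the groups compared.

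Promoter sequence is shown for a pair of genes called higher in I/R than in sham (Apln and Esm1) and for the VEGF-A receptors Kdr and Flt1. Of these receptors Kdr was lower in SBP and Flt1 was not. RefSeq promoters (GRCm38.p6) were listed for 7 of the 10 genes. The 250 bases upstream of the start are written 5′ to 3′ on the gene's strand, with capitals at each match to ACGTG or GCGTG (the core bound by hypoxia-inducible factors) or to CCGGAA or CAGGAA (among the cores bound by ETS factors), on either strand. Other sequences that hold GGAA were not searched for, and the windows contain some unmarked.
Apln, chrX:48034854-48035103, minus strand: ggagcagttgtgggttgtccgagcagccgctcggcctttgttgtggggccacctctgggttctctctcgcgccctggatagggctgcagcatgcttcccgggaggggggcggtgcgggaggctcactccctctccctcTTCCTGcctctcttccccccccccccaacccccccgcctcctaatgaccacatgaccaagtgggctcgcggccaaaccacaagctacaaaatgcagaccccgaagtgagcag
Esm1, chr13:113209409-113209658, plus strand: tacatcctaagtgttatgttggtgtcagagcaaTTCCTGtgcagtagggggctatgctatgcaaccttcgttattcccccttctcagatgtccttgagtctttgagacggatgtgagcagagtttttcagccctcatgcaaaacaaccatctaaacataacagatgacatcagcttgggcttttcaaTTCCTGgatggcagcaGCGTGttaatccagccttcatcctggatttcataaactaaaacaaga
Kdr, chr5:75978456-75978705, minus strand: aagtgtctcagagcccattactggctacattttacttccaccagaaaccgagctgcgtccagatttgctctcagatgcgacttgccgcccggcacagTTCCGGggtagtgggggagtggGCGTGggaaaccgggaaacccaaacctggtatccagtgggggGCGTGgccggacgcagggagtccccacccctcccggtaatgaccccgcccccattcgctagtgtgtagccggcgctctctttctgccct
Flt1, chr5:147726012-147726261, minus strand: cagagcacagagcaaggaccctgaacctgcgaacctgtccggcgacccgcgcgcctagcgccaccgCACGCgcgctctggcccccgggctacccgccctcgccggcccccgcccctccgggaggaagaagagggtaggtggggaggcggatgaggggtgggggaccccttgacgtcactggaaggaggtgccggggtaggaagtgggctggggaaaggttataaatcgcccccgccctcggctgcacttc
The Apln window held no HIF core and 1 ETS core, 112 bases upstream of the start. The Esm1 window held 1 HIF core, 47 bases upstream, and ETS cores 63 and 217 bases upstream. The Kdr window held HIF cores 89 and 131 bases upstream and an ETS core 153 bases upstream, and the Flt1 window held 1 HIF core 184 bases upstream. Of 32851 promoter windows of this length in the table, 38.6% held either HIF core and 35.1% either ETS core, so these matches are common and describe the windows only.

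In the I/R section, 3 of the 10 genes were called higher than in sham (Apln, Angpt2 and Esm1) and 0 were called lower, against 22.7% and 3.25% of all 12231 genes compared. In the SBP section relative to I/R, 1 of 9 genes was called higher (Angpt1) and 3 were called lower (Apln, Angpt2 and Aplnr), against 1.69% and 13.1% of 12151 genes. In SBP relative to sham, 0 of 9 genes were called higher and 1 was called lower (Kdr), against 4.85% and 2.39% of 11768 genes. These comparisons share sections, so a gene high in I/R alone counts in both of the first pair. The median log2 ratio of all genes compared was 0.24 for I/R over sham, -0.17 for SBP over I/R and 0.08 for SBP over sham, and that of the angiogenic genes was -0.07, -0.07 and -0.14.

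**Figure D1:**
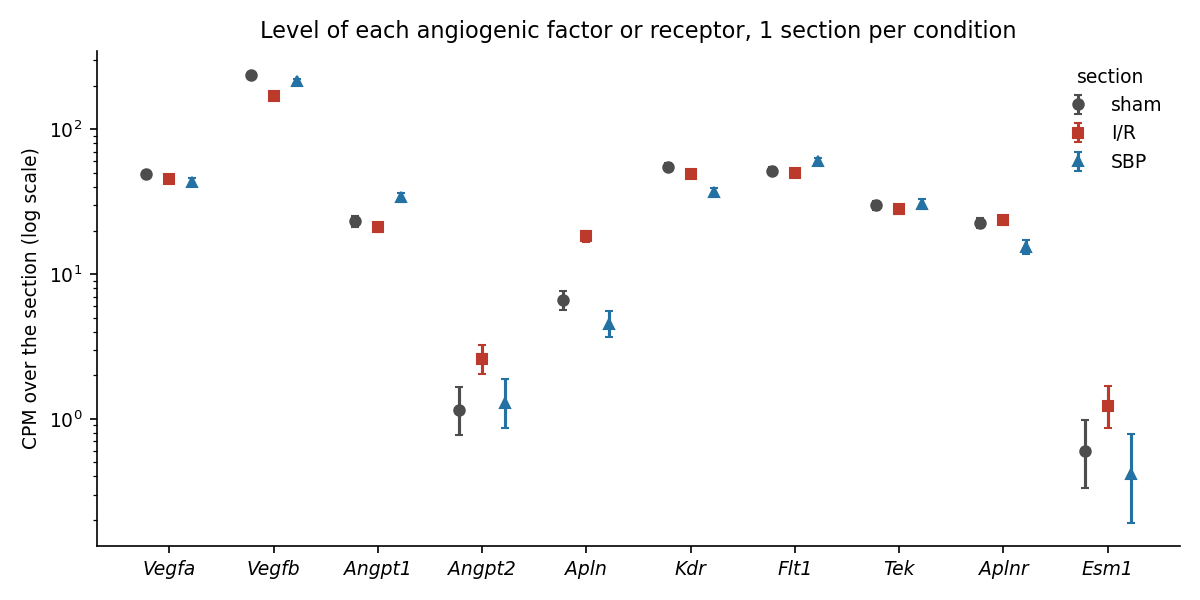
CPM of each gene (log axis) in the sham, I/R and SBP sections; symbols are the value of 1 section and whiskers the 95% Poisson interval. Apln stands at 18.3 CPM in I/R against 6.61 in sham and 4.53 in SBP, while Vegfa lies between 43.5 and 49.0 CPM in all 3 sections.

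Apln encodes the apelin ligand (ENSMUSG00000037010, chromosome X from 48025146 to 48034853 of GRCm38, minus strand). The transcript stood at 6.61 CPM in sham (5.64 to 7.69, 166 UMIs), 18.3 CPM after I/R (16.8 to 19.9, 553 UMIs) and 4.53 CPM with SBP (3.68 to 5.52, 98 UMIs). The I/R section stood apart from both others, whose intervals did not overlap with it or with each other. The log2 ratio of I/R over sham was 1.47 (1.22 to 1.73), which is 2.77-fold, and that of SBP over I/R was -2.01 (-2.34 to -1.70), which is 4.04-fold lower. In the latter comparison Apln had the 82nd lowest ratio of 12151 genes. Relative to the median gene the log2 ratios were 1.23 and -1.85.

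Angpt2, the angiopoietin released by activated endothelium (ENSMUSG00000031465, chromosome 8 from 18690263 to 18741562, minus strand), rested on few UMIs. Its level was 1.15 CPM in sham (0.773 to 1.66, 29 UMIs), 2.58 CPM after I/R (2.04 to 3.22, 78 UMIs) and 1.29 CPM with SBP (0.860 to 1.87, 28 UMIs). The sham and SBP intervals overlapped and both lay below that of I/R. The log2 ratio was 1.16 (0.53 to 1.83) for I/R over sham and -0.99 (-1.67 to -0.36) for SBP over I/R. Its counterpart Angpt1 (ENSMUSG00000022309, chromosome 15 from 42424723 to 42676977, minus strand) had another pattern. Angpt1 stood at 23.1 CPM in sham (21.3 to 25.1, 581 UMIs), 21 CPM after I/R (19.4 to 22.7, 635 UMIs) and 33.9 CPM with SBP (31.5 to 36.4, 733 UMIs). SBP was the high section, and sham and I/R overlapped. The log2 ratio of SBP over I/R was 0.69 (0.54 to 0.85), 1.61-fold and the 157th highest of 12151 genes, and that of SBP over sham was 0.55 (0.39 to 0.71), 1.46-fold and under the 1.5-fold limit. Set against each other, there were 4.99 Angpt2 UMIs per 100 Angpt1 UMIs in sham (3.31 to 7.25), 12.3 after I/R (9.58 to 15.6) and 3.82 with SBP (2.52 to 5.57), so that the ratio of the angiopoietins was higher in I/R than in either other section.

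Vegfa and Vegfb are ligands of the VEGF receptors, and VEGF-B is abundant in the heart. Vegfa (ENSMUSG00000023951, chromosome 17 from 46016993 to 46032369, minus strand) stood at 49.0 CPM in sham (46.3 to 51.8), 45.8 after I/R (43.4 to 48.2) and 43.5 with SBP (40.8 to 46.4). Neighbouring sections in this order overlapped, and no comparison was called, with log2 ratios from -0.17 to -0.07. Vegfb (ENSMUSG00000024962, chromosome 19 from 6982473 to 6987651, minus strand) stood at 238 CPM in sham (232 to 244), 170 after I/R (166 to 175) and 216 with SBP (210 to 222). No intervals overlapped, with I/R lowest and SBP between it and sham. The log2 ratio was -0.48 (-0.54 to -0.43) for I/R over sham and 0.34 (0.28 to 0.40) for SBP over I/R, both under 1.5-fold. With UMIs of mitochondrial genes left out, or with TMM or median-of-ratios factors, Vegfb was called lower in I/R than in sham.

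The VEGF-A receptors Kdr and Flt1 were unlike each other in SBP. Kdr, the main signalling receptor of VEGF-A (ENSMUSG00000062960, chromosome 5 from 75932827 to 75978458, minus strand), stood at 55.2 CPM in sham (52.4 to 58.2, 1387 UMIs), 49.0 after I/R (46.5 to 51.5, 1481 UMIs) and 36.7 with SBP (34.2 to 39.4, 794 UMIs). Its intervals did not overlap, and SBP was lowest. The log2 ratio of SBP over sham was -0.59 (-0.72 to -0.46), 1.5-fold lower, and that of SBP over I/R was -0.42 (-0.54 to -0.29). Flt1 (ENSMUSG00000029648, chromosome 5 from 147561604 to 147726011, minus strand) stood at 51.8 CPM in sham (49.0 to 54.7), 50.3 after I/R (47.8 to 52.9) and 60.5 with SBP (57.2 to 63.8). Here SBP was highest and sham and I/R overlapped. For Flt1, SBP over I/R gave a log2 ratio of 0.26 (0.16 to 0.37), with no call in any comparison.

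Tek, the angiopoietin receptor (ENSMUSG00000006386, chromosome 4 from 94739289 to 94874976, plus strand), stood at 29.8 CPM in sham (27.7 to 32.0), 28.0 after I/R (26.2 to 30.0) and 30.4 with SBP (28.1 to 32.8), and all intervals overlapped. Aplnr, the apelin receptor (ENSMUSG00000044338, chromosome 2 from 85136225 to 85139923, plus strand), stood at 22.5 CPM in sham (20.7 to 24.5), 23.5 after I/R (21.8 to 25.3) and 15.5 with SBP (13.9 to 17.2). SBP lay below the overlapping other sections. The log2 ratio of SBP over I/R was -0.60 (-0.80 to -0.42) for Aplnr, 1.52-fold lower, and -0.54 (-0.74 to -0.34) for SBP over sham. Ligand and receptor of the apelin pair thus both had their lowest CPM in SBP, although with equal weight for each spot the log2 ratio of SBP over sham was 0.11 for Apln. The Aplnr call was lost with TMM factors (-0.45), with median-of-ratios factors (-0.44) and without mitochondrial UMIs (-0.55). Esm1, a proteoglycan secreted by endothelial tip cells (ENSMUSG00000042379, chromosome 13 from 113209659 to 113218098, plus strand), was near the limit of detection with 15 UMIs in sham, 37 after I/R and 9 with SBP. Its level was 0.597 CPM (0.334 to 0.985), 1.22 CPM (0.862 to 1.69) and 0.416 CPM (0.190 to 0.790), and the call in I/R (1.03, interval 0.13 to 2.01) was lost with TMM (0.81) and median-of-ratios factors (0.80).

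**Figure D2:**
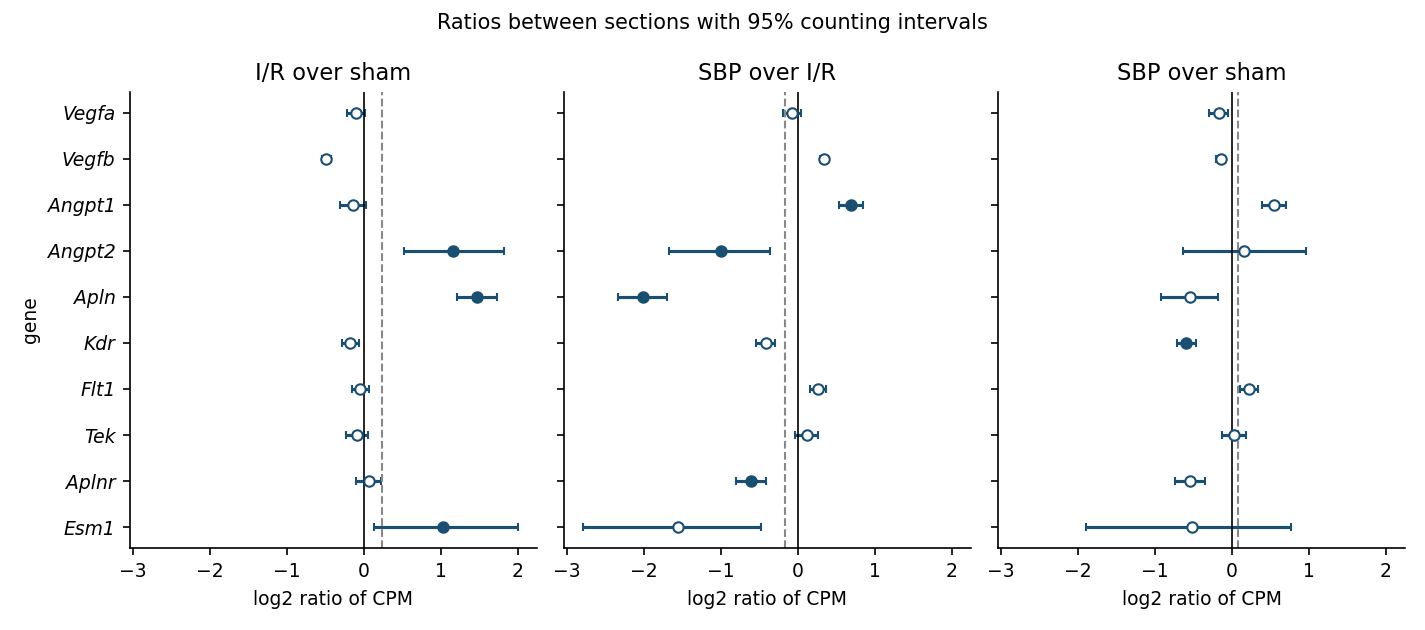
Log2 ratio of CPM between sections for each gene, with the 95% counting interval; filled circles are called and open circles are not, and the dashed line is the median of all genes compared. Apln runs from 1.47 in I/R over sham to -2.01 in SBP over I/R, and Angpt1 at 0.69 is the filled circle to the right of 0 in SBP over I/R.

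To compare spots at the same depth, UMIs were drawn at random to a common 6500 per spot, and 2102 sham, 1880 I/R and 1747 SBP spots were deep enough. At this depth Apln was found in 4.33% of sham spots (3.50 to 5.29), 8.14% of I/R spots (6.94 to 9.47) and 2.35% of SBP spots (1.69 to 3.17), and in 6.71%, 16.6% and 4.44% without thinning. Thinned Apln kept the order of its CPM. Angpt1 was found in 12.7% of sham (11.3 to 14.2), 12.0% of I/R (10.5 to 13.5) and 19.2% of SBP spots (17.4 to 21.2). Kdr was found in 31.1% of sham (29.1 to 33.1), 27.3% of I/R (25.3 to 29.4) and 19.6% of SBP spots (17.8 to 21.6), and Aplnr in 12.8%, 13.2% and 8.70%. Vegfa was found in 25.9%, 25.7% and 24.8% of spots, and Vegfb in 78.1%, 65.7% and 76.0%. Angpt2 was found in 1.54% of I/R spots and Esm1 in 1.01%, with less in the other sections. These shares come from 1 random draw, and their intervals leave out the spread between draws. Over 20 draws the I/R share ran from 1.33% to 2.23% for Angpt2 and from 0.64% to 1.01% for Esm1. The UMIs of Apln were also unevenly spread, with up to 14 in 1 spot of I/R, where the 1% of spots with the most held 21.5% of them, against 6.79% for Vegfa.

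Cell type markers moved between these sections beside the angiogenic genes. The 8 endothelial genes (Pecam1, Cdh5 and others) summed to 351 CPM in sham, 445 after I/R and 392 with SBP. All 8 were above 0 on the log2 scale in I/R over sham and 0 of 8 were called, where 22.7% of all genes were called higher. The 5 capillary genes summed to 855, 744 and 849 CPM, of which Fabp4 made up 546, 494 and 487 CPM and Aqp1 205, 148 and 248 CPM. The 3 endocardial genes summed to 51.6, 38.1 and 76.6 CPM, of which Vwf made up 37.1, 29.0 and 52.7 CPM. In SBP over I/R 3 of 3 endocardial genes were called higher, against 1.69% of all genes. The 6 cardiomyocyte genes summed to 26526, 20289 and 23143 CPM, the 7 pericyte genes to 441, 334 and 409 CPM, the 5 macrophage genes to 183, 281 and 187 CPM and the 3 neutrophil genes to 15.2, 136 and 60.9 CPM. The 4 smooth muscle genes summed to 317, 237 and 124 CPM. Rgs5 made up 233, 153 and 197 CPM of the pericyte sum, and Acta2 254, 168 and 83.0 CPM of the smooth muscle sum. In I/R over sham, 3 of 7 pericyte genes and 2 of 4 smooth muscle genes were above 0 on the log2 scale, so neither list moved as a whole. In SBP over I/R 4 of 4 smooth muscle, 4 of 5 macrophage and 3 of 3 neutrophil genes were called lower, against 13.1% of all genes. Every gene of these lists had UMIs in each section. The part of these shifts in the angiogenic values was not tested.

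Levels per endothelial UMI put the receptors on the scale of the tissue's endothelial RNA. There were 157 Kdr UMIs per 1000 UMIs of the endothelial list in sham, 110 after I/R and 93.5 with SBP. The log2 ratio of Kdr on this scale was -0.51 (-0.63 to -0.40) for I/R over sham and -0.24 (-0.37 to -0.11) for SBP over I/R. Flt1 stood at 148, 113 and 154 UMIs per 1000, with a log2 ratio of 0.44 (0.33 to 0.56) for SBP over I/R. On this scale Tek was at 85.0, 63.0 and 77.4, and Aplnr at 64.2, 53.0 and 39.5, so that all 4 receptors were lower in I/R than in sham, and Flt1 and Tek but not Kdr and Aplnr were higher in SBP than in I/R. Against the capillary list the 4 receptors had log2 ratios of 0.03 to 0.26 for I/R over sham, so the direction depends on which endothelial genes set the scale. For SBP over I/R the capillary scale gave 0.08 (-0.03 to 0.19) for Flt1 and -0.07 (-0.22 to 0.08) for Tek, so neither was separable from 0 there. Kdr was at -0.61 (-0.73 to -0.48) and Aplnr at -0.79 (-0.98 to -0.60). Apln remained highest in I/R on both scales, at 18.8, 41.1 and 11.5 UMIs per 1000 of the endothelial list, with log2 ratios of 1.13 (0.87 to 1.38) and -1.83 (-2.15 to -1.52). Per 1000 UMIs of the cardiomyocyte list, Vegfb stood at 8.98 in sham, 8.39 after I/R and 9.32 with SBP, and its log2 ratio of I/R over sham became -0.10 (-0.15 to -0.04). On the cardiomyocyte scale Vegfa had a log2 ratio of 0.29 (0.18 to 0.40) for I/R over sham, where its CPM gave -0.10. The SBP over I/R ratio of Angpt1 was 0.50 both per cardiomyocyte UMI (0.35 to 0.65) and per capillary UMI (0.35 to 0.66), above 0 but under the 1.5-fold limit that it passed in CPM. Per endothelial UMI it was 0.87 (0.71 to 1.03), which passes that limit. For SBP over sham, the log2 ratio of Angpt1 was 0.75 (0.59 to 0.90) per cardiomyocyte UMI. It was 0.56 (0.40 to 0.72) per capillary UMI and 0.39 (0.23 to 0.55) per endothelial UMI.

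**Figure D3:**
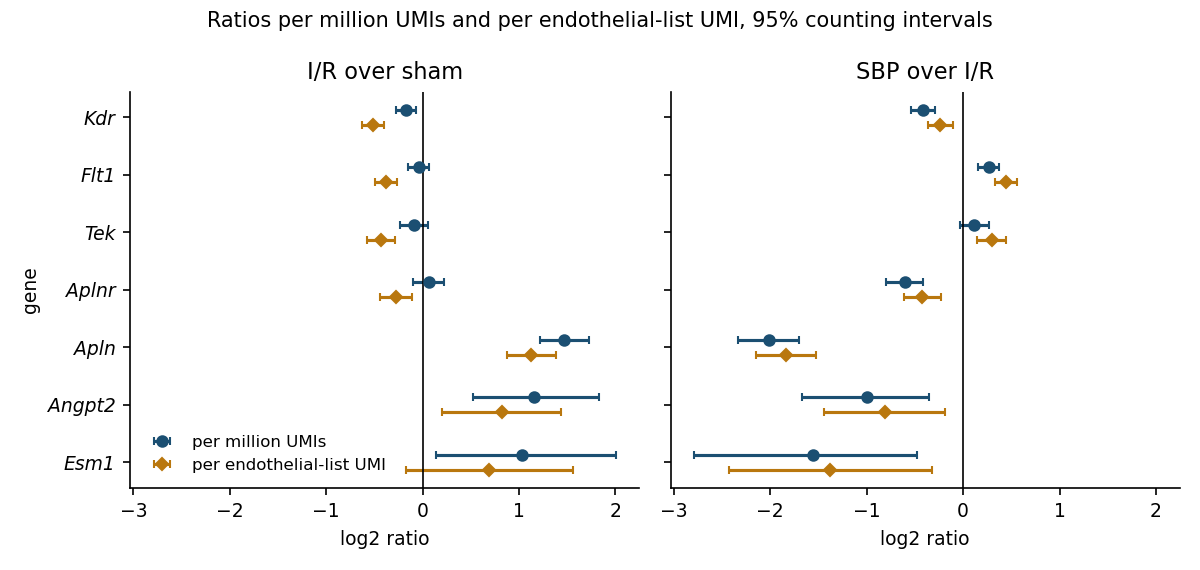
Log2 ratios of 7 genes between sections per 1000000 UMIs (circles) and per UMI of the 8-gene endothelial list (diamonds), with 95% counting intervals. Apln and Angpt2 stay above 0 in I/R over sham and below 0 in SBP over I/R on both scales, while the 4 receptors move to between -0.51 and -0.28 in I/R over sham on the endothelial scale.

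The sections were then divided by Ankrd1, a stress-induced cardiomyocyte gene that marks the border of infarcts. Spots above the sham 95th percentile of Ankrd1 (27.0 UMIs per 10000) were called Ankrd1-high. They numbered 112 in sham (5.01%), 479 after I/R (23.0%) and 326 with SBP (16.6%). Their median UMIs per spot were 14927, 17348 and 11990, against 10502, 14103 and 10453 in the other spots. In sham, 0 of 8 genes were called higher in Ankrd1-high spots and 4 were called lower (Vegfb, Angpt1, Apln and Tek), against 21.1% and 2.29% of 10642 genes. In I/R, 2 of 9 were called higher (Apln and Angpt2) and 1 lower (Angpt1), against 12.7% and 3.19% of 11408 genes. In SBP, 0 of 8 were called higher and 1 was called lower (Angpt1), against 14.1% and 3.40% of 10469 genes. Angpt2 reached the minimum of UMIs in I/R alone (78 UMIs, with 29 in sham and 28 in SBP), so it could not be called in sham or SBP. Its untested levels in Ankrd1-high and other spots were 1.63 and 1.12 CPM in sham and 2.30 and 1.07 CPM in SBP. The Angpt2 call is therefore no sign of a difference between sections. Esm1 reached the minimum in no section.

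Angpt1 was the gene called lower in Ankrd1-high spots of all 3 sections. In sham it stood at 14.1 CPM in these spots (9.21 to 20.6) and 23.8 CPM in the others (21.9 to 25.9). In I/R these levels were 7.83 CPM (6.03 to 10.0) and 25.9 CPM (23.8 to 28.1), and in SBP 18.4 CPM (14.4 to 23.1) and 37.3 CPM (34.5 to 40.3). The log2 ratio was -0.76 (-1.39 to -0.19) in sham, -1.72 (-2.12 to -1.35) after I/R and -1.02 (-1.39 to -0.67) with SBP. The I/R ratio was the 20th lowest of 11408 genes. The sham call was lost under 4 of 10 alternatives and those of I/R and SBP under none. Over 5 bins of rising Ankrd1, cut at the sham 25th, 50th, 75th and 95th percentiles, Angpt1 went from 36.2 to 7.83 CPM in I/R and from 46.1 to 18.4 CPM in SBP, falling at each step. In sham the 5 bins were at 24.8, 26.9, 23.6, 19.8 and 14.1 CPM, with the second bin the highest. Between sections, the log2 ratio of SBP over I/R for Angpt1 was 1.23 (0.72 to 1.74) within Ankrd1-high spots and 0.53 (0.36 to 0.69) within the others.

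Vegfb was lower in Ankrd1-high spots of each section as well, at 149 against 245 CPM in sham, 131 against 185 CPM after I/R and 188 against 222 CPM with SBP. The log2 ratios of Vegfb were -0.72 (-0.90 to -0.55), -0.49 (-0.59 to -0.40) and -0.24 (-0.35 to -0.12). Vegfa had 52.6 against 48.7 CPM in sham, 40.9 against 47.6 CPM after I/R and 38.8 against 44.5 CPM with SBP, and none of these reached 1.5-fold. Cardiomyocyte genes also summed to less in Ankrd1-high spots (a log2 ratio of -0.43 in sham, -0.36 after I/R and -0.34 with SBP), and their part in the values of the ligands was not tested.

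**Figure D4:**
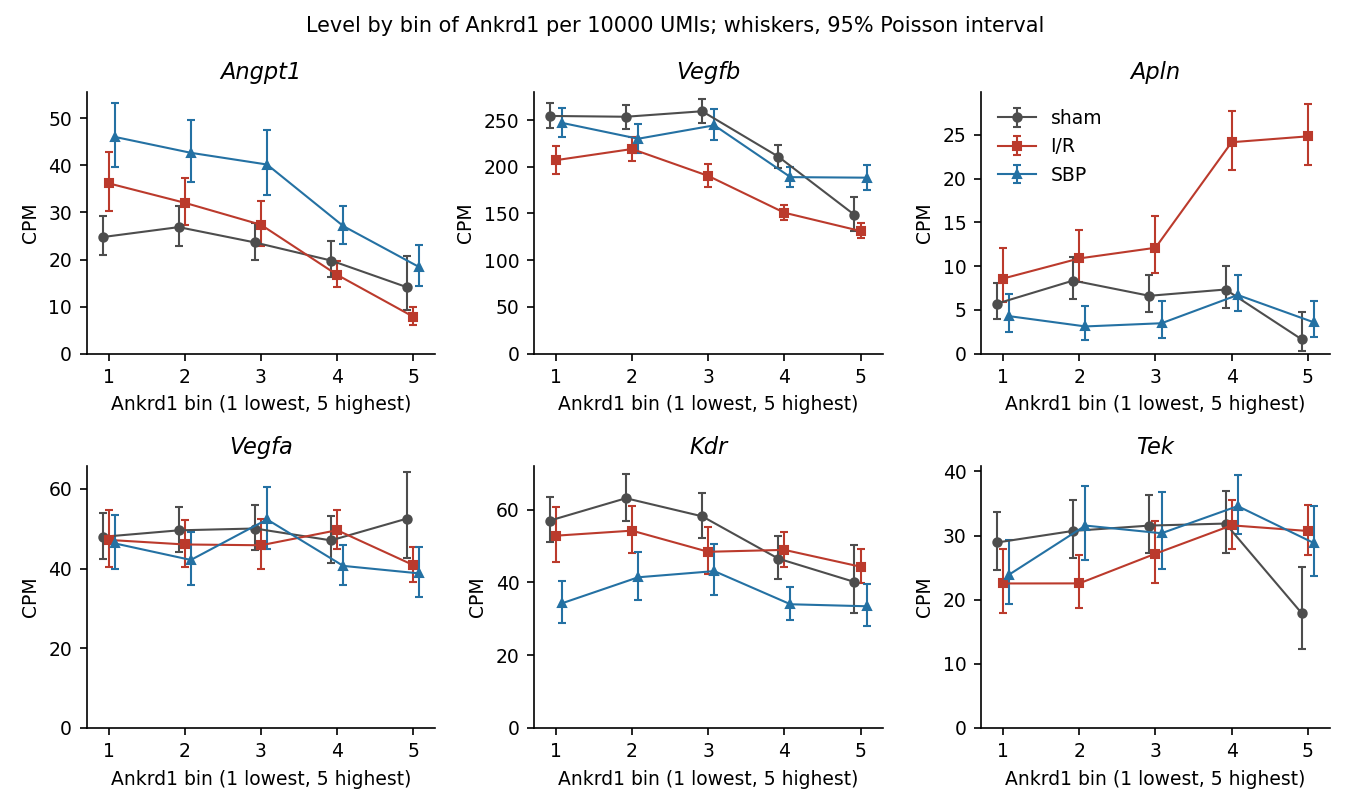
CPM of 6 genes over 5 bins of Ankrd1 per 10000 UMIs, from the lowest (1) to the Ankrd1-high spots (5), in each section; whiskers are 95% Poisson intervals. Angpt1 descends to 7.83 CPM in the highest bin of I/R, and Apln in I/R is at 24.2 and 24.8 CPM in the top pair of bins against 8.58 CPM in the lowest.

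Apln had 3 UMIs in the Ankrd1-high spots of sham, a level of 1.63 CPM (0.335 to 4.75) against 7.00 CPM in the others (5.97 to 8.17). In I/R it had 24.8 CPM (21.5 to 28.5, 203 UMIs) against 15.9 CPM (14.2 to 17.6), and in SBP 3.57 CPM (1.95 to 5.99) against 4.74 CPM (3.78 to 5.87). Ankrd1-high spots were thus lower in Apln in sham, higher after I/R and not separable with SBP, with log2 ratios of -2.11 (-4.40 to -0.53), 0.65 (0.39 to 0.90) and -0.41 (-1.34 to 0.42). The Apln call in sham was lost under 3 of 10 alternatives, with values of -0.17 at the sham 90th percentile, -0.31 in the top 20% of spots and 1.05 with injury genes. The Apln call in I/R was lost under 6, with values down to 0.13, and that of Angpt2 (0.76, interval 0.05 to 1.44) under 5. Kdr, Flt1 and Aplnr were not called in any section, and Tek, at 17.9 against 30.8 CPM in sham, was called in sham alone.

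A second region was set by injury genes. In I/R it separated Apln, Angpt2, Angpt1 and Vegfb further than Ankrd1 did, while in sham the ratios of Tek, Angpt1 and Vegfb were smaller than with Ankrd1. It holds the spots in which 11 genes of inflammation and matrix (among them S100a8, Spp1, Timp1 and Fn1, none of them an angiogenic gene described here) together exceeded their sham 95th percentile. This gave 112 sham, 746 I/R and 317 SBP spots, of which 31, 310 and 116 were also Ankrd1-high. For all genes compared, the median log2 ratio of these spots over the others was 0.66 in sham, 0.86 after I/R and 0.54 with SBP. In I/R, 3 of 9 genes were called higher (Apln, Angpt2 and Flt1) and 2 lower (Angpt1 and Vegfb), against 63.4% and 6.90% of all genes. In sham, 1 of 8 was called higher (Apln) and 1 lower (Vegfb), against 45.2% and 2.57%, and in SBP 1 of 8 was called higher (Apln) and 2 lower (Angpt1 and Vegfb), against 43.7% and 3.72%. Angpt2 had too few UMIs in sham and SBP to be called there. Its untested log2 ratios were 2.15 (0.56 to 3.49) in sham and 2.84 (1.67 to 4.03) in SBP.

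Apln stood at 46.4 CPM in the injury-gene spots of I/R (42.2 to 51.0, 431 UMIs) and 5.82 CPM in its other spots (4.83 to 6.95, 122 UMIs). In SBP it stood at 15.7 CPM (11.5 to 20.8, 47 UMIs) and 2.74 CPM (2.04 to 3.60, 51 UMIs), and in sham at 12.9 CPM (7.65 to 20.4, 18 UMIs) and 6.24 CPM (5.27 to 7.33, 148 UMIs). The high level of I/R was therefore in the injury-gene spots, which held 77.9% of its Apln UMIs, while its other spots overlapped with those of sham. Inside over outside, the log2 ratio of Apln was 3.00 (2.70 to 3.30) in I/R, the 283rd highest of 11408 genes, 2.52 (1.91 to 3.12) in SBP and 1.05 (0.25 to 1.76) in sham. Within injury-gene spots, the log2 ratio of I/R over sham was 1.85 (1.17 to 2.62) and that of SBP over I/R was -1.57 (-2.03 to -1.13). Outside them these ratios were -0.10 (-0.46 to 0.26) and -1.09 (-1.59 to -0.61), so the lower Apln of SBP was present in both classes of spots. In I/R, Apln was highest in injury-gene spots that were not Ankrd1-high, at 61.2 CPM (54.0 to 69.2), against 34.0 CPM (29.2 to 39.5) where both were high and 9.94 CPM (6.75 to 14.1) where only Ankrd1 was.

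The endothelial list also summed to more inside this region, at 681 against 340 CPM in I/R, 576 against 363 CPM in SBP and 537 against 340 CPM in sham. The capillary list summed to less inside, at 704 against 762 CPM in I/R, 729 against 868 CPM in SBP and 753 against 861 CPM in sham. Whether endothelial RNA was higher in this region therefore depends on which endothelial genes are summed. Per 1000 endothelial UMIs, Apln stood at 68.2 inside and 17.1 outside in I/R, 27.2 and 7.54 in SBP and 24.0 and 18.3 in sham. The neutrophil genes summed to 404 CPM inside and 17.4 CPM outside in I/R, the macrophage genes to 611 and 135 CPM and the smooth muscle genes to 498 and 122 CPM. S100a8 is both a neutrophil-list gene and an injury gene that sets the region, so the neutrophil contrast is partly fixed by the definition. Over the I/R section S100a8 had 3262 UMIs, against 816 for Csf3r and 40 for Retnlg, the rest of that list. The source of the Apln transcripts was not tested.

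Angpt2 followed the same spots, with 62 of its 78 UMIs in the injury-gene spots of I/R. It stood there at 6.68 CPM (5.12 to 8.56) against 0.763 CPM outside (0.436 to 1.24), at 5.0 against 0.698 CPM in SBP, and at 4.30 against 0.970 CPM in sham. The log2 ratio of Angpt2 in I/R was 3.13 (2.32 to 4.02). Between sections, Angpt2 inside the region had a log2 ratio of 0.64 (-0.57 to 2.14) for I/R over sham and -0.42 (-1.34 to 0.41) for SBP over I/R, intervals that hold 0, as they do outside. At this depth no difference within either class of spots was detectable for Angpt2, while the number of such spots differed among sections. Esm1 had 26 of its 37 I/R UMIs in these spots, 3 of 15 in sham and 5 of 9 in SBP.

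Angpt1 was lower in the injury-gene spots of I/R, at 4.74 CPM (3.44 to 6.36, 44 UMIs) against 28.2 CPM (26.0 to 30.6, 591 UMIs). In SBP it stood at 16.3 CPM (12.1 to 21.6) against 36.7 CPM (34.0 to 39.6), and in sham at 15.8 CPM (9.88 to 23.9) against 23.6 CPM (21.7 to 25.6). The log2 ratio in I/R was -2.57 (-3.05 to -2.13), the 8th lowest of 11408 genes, and that of SBP was -1.17 (-1.62 to -0.75). Within these spots Angpt1 in SBP (49 UMIs) was not separable from its sham level (22 UMIs), with a log2 ratio of 0.05 and a wide interval of -0.70 to 0.85. It was above its I/R level, with a log2 ratio of 1.78 (1.17 to 2.41). Outside them the log2 ratio of SBP over I/R was 0.38 (0.22 to 0.54). Cardiomyocyte genes summed to 12492 CPM inside and 23741 CPM outside in I/R, a log2 ratio of -0.93 (-0.94 to -0.92), and pericyte genes to 298 and 350 CPM. Of the 7 pericyte genes, 2 were called higher inside and 3 lower, against 63.4% and 6.90% of all genes. Inside the region cardiomyocyte genes summed to more in the other sections, at 16932 CPM in sham and 16098 CPM in SBP. The part of these markers in the Angpt1 values was not tested.

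The receptors were less divided in CPM. Flt1 stood at 68.0 CPM inside and 42.5 CPM outside in I/R, a log2 ratio of 0.68 (0.53 to 0.83), which is below the 0.86 of the median gene. Kdr stood at 54.8 CPM inside (50.2 to 59.8) and 46.4 CPM outside (43.5 to 49.4) in I/R, but at 38.7 CPM inside (29.1 to 50.5) and 56.2 CPM outside (53.2 to 59.3) in sham. In SBP, Kdr was at 36.3 and 36.8 CPM, so that by CPM injury-gene spots were the higher class in I/R, the lower class in sham and not separable in SBP. Per 1000 endothelial UMIs, Kdr was lower inside in each section. It stood there at 72.1 against 165 in sham, 80.6 against 136 in I/R and 63.0 against 101 in SBP. Flt1, Tek and Aplnr were also lower inside on this scale in each section. Vegfa was lower inside in each section, at 37.3 against 49.7 CPM in sham, 39.0 against 48.8 CPM after I/R and 30.7 against 45.6 CPM with SBP, under 1.5-fold in all. The receptor Aplnr in injury-gene spots was at 30.2 CPM after I/R (26.7 to 33.9) and 13 CPM with SBP (9.24 to 17.8), a log2 ratio of SBP over I/R of -1.22 (-1.74 to -0.73), against -0.38 (-0.59 to -0.16) in the other spots.

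**Figure D5:**
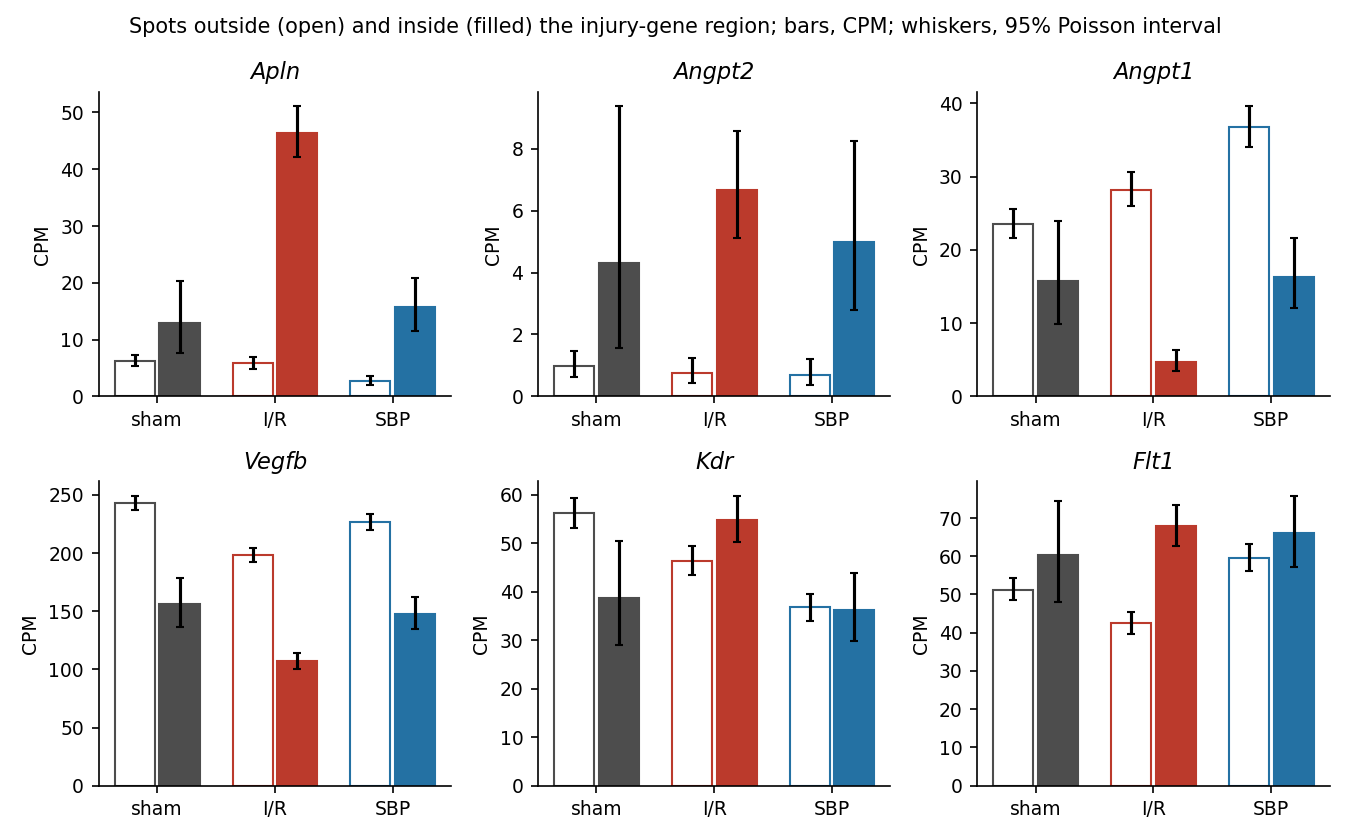
CPM of 6 genes outside (open bars) and inside (filled bars) the injury-gene spots of each section; whiskers are 95% Poisson intervals. Apln reaches 46.4 CPM inside the region of I/R against 15.7 CPM in SBP, and Angpt1 drops to 4.74 CPM inside the region of I/R against 16.3 CPM in SBP.

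Likeness over spots was measured as the Pearson correlation of log levels within a section, averaged over the 3 sections, against 3130 genes that reached 500 UMIs in every section. Of the angiogenic genes, 6 reached it. The points are spots of the same libraries, which differ in depth and tissue, and no p is given. Vegfb was most like the cardiomyocyte genes Myl2 (mean r 0.310), Slc25a4 (0.295) and Mb (0.292). Angpt1 was most like Tcap (0.176), Atp2a2 (0.172) and Myh6 (0.165), also genes of cardiomyocytes, and Vegfa like Lpl (0.105), Atp2a2 (0.105) and Tnnt2 (0.101). Each of these 3 ligands thus had cardiomyocyte genes among its nearest. Kdr was most like Fabp4 (0.071), Col4a1 (0.055) and Ly6a (0.053), genes of capillary endothelium and its basement membrane. Flt1 was most like Ptma (0.117), Tmsb10 (0.105) and Myl6 (0.105), and Tek like Mgp (0.095), Crip1 (0.089) and Cavin1 (0.084). The correlations of Vegfa and of the receptors were weak, and Kdr with Flt1 reached 0.028. The part of sparse counts in this was not tested. Within the I/R section, where Apln passed 500 UMIs, its nearest genes of 4616 were Actb (0.418), the neutrophil gene S100a8 (0.409) and Fxyd5 (0.400), a list chosen after its values were seen.

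Of 36 other genes of the VEGF, angiopoietin, apelin, Notch and related pathways, 31 could be compared in I/R over sham, with 5 called higher (Thbs1, Cxcr4, Met, Pgf and Unc5b) and 1 lower (Svep1), against 22.7% and 3.25% of all genes. In SBP over I/R 0 of 31 were called higher and 5 lower (Thbs1, Met, Vegfc, Cxcr4 and Vegfd), against 1.69% and 13.1% of all genes, and in SBP over sham 1 of 30 was called higher (Thbs1) and 1 lower (Vegfd), against 4.85% and 2.39%. The largest was Thbs1, an inhibitor of angiogenesis, at 8.04 CPM in sham, 41.8 after I/R and 12.2 with SBP, with log2 ratios of 2.38 (2.16 to 2.60) and -1.78 (-1.98 to -1.59). Cxcr4, a chemokine receptor of tip cells and leukocytes, had log2 ratios of 1.12 (0.82 to 1.43) and -0.65 (-0.94 to -0.36). Pgf, a ligand of Flt1, was called higher in I/R (0.75, interval 0.50 to 1.0), and Vegfc (-0.73) and Vegfd (-0.63), ligands of the lymphatic receptor Flt4, were called lower in SBP over I/R. Apela, the second ligand of Aplnr, had 0 UMIs in all 3 sections, and 3 UMIs would be 0.119 CPM in sham, 0.0992 after I/R and 0.139 with SBP. Of 13 genes induced through hypoxia-inducible factors, 12 could be compared, with 2 called higher and 0 lower in I/R over sham, where 22.7% of all genes were higher. In SBP over I/R 0 were called in either direction, and in SBP over sham 2 were called higher, where 4.85% of all genes were, and 0 lower. The glucose transporter Slc2a1 stood at 7.33 CPM in sham, 16.5 after I/R and 12.7 with SBP, and Pfkfb3, a regulator of glycolysis, at 4.50, 6.85 and 9.11 CPM. In SBP over sham the log2 ratio of Slc2a1 was 0.79 (0.52 to 1.07) and that of Pfkfb3 was 1.02 (0.68 to 1.36), and these were the 2 called genes. Of the 12 compared, 6 were above 0 in SBP over sham, with a median log2 ratio of 0.006. The 13 genes summed to 518 CPM in sham and 493 CPM with SBP. Apln, itself a gene induced by low oxygen, had a log2 ratio of -0.54 (-0.92 to -0.18), and 0.11 with equal weight for each spot.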

How the data were processed

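The 3 spatial libraries, a single section for each condition, were grouped by the treatment in their labels. The authors deposited raw UMI counts per gene and spot, without normalization, for spots over tissue. Space Ranger 1.3.0 and mm10 are named in the submitters' processing notes, while the paper's methods give a different version and human as the reference, and the genes in the files are murine. Positions came from GENCODE M21 (GRCm38), which holds 32235 of the 32285 identifiers. No gene on the same strand overlaps any of the 10 genes.

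A spot needed 200 detected genes, which 3 sham, 1 I/R and 2 SBP spots did not have. UMIs were summed over spots and divided by all UMIs (CPM). For 95% intervals, sums were taken as Poisson, shares as binomial (Clopper-Pearson) and ratios as conditional binomial, all exact. For ratios per marker-list UMI the variances of the 4 sums were added on the log scale. Thinning was a hypergeometric draw to 6500 UMIs per spot, the 10th percentile over all spots rounded down to a multiple of 500. Depth was between 21631280 and 30238530 UMIs per section, and precision follows from the UMIs printed beside a value. Ratios and thinning were tested on simulated data. The genes, marker lists, pathway lists and injury list were chosen with earlier results of these data known. Named were all 10 genes, of the pathway and hypoxia lists the called genes, up to 4 per list and comparison by size, and the 3 genes most like each of those with enough UMIs.

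Alternatives were UMIs without the 13 mitochondrial genes, TMM (edgeR 4.0.16) and median-of-ratios factors, equal weight per spot, other spot and gene filters, a 2-fold limit, the 1% of spots richest in a gene left out, other thresholds of Ankrd1, the injury list, and other thinning. Crossing the injury list with Ankrd1 and the levels per endothelial UMI within its spots were added after the data were seen. Software was Python 3.11.15 (scipy 1.17.1, numpy 2.4.6, matplotlib 3.10.9, pandas 2.3.3) and R 4.3.3. Spot positions were not used here.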

Additional observations from a re-analysis of the deposited data

Results flagged for a closer look

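Apln had opposite directions in Ankrd1-high spots of different sections, with a log2 ratio over other spots of -2.11 in sham and 0.65 in I/R, each with an interval that leaves out 0. The sham value rests on 3 UMIs in 112 spots and its call was lost under 3 of 10 alternatives (-0.17, -0.31 and 1.05), and the I/R call was lost under 6, with values down to 0.13. The difference between the sections was not tested, and each is 1 animal.

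Kdr likewise had opposite directions in CPM in the injury-gene spots, with a log2 ratio over other spots of -0.54 in sham and 0.24 in I/R. Per 1000 endothelial UMIs it was lower in the injury-gene spots of both, at 72.1 against 165 in sham and 80.6 against 136 in I/R. The capillary list had log2 ratios of -0.19 in sham and -0.11 in I/R. Relative to that list, Kdr was lower in these spots in sham and higher in I/R. The median of all genes compared was 0.66 in sham and 0.86 in I/R, so that Kdr lay below the median gene in both. This difference was not tested either.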

How the results depend on the processing

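No paired analysis was possible because sham, I/R and SBP are a single section each, and no replicate could be left out. Over 7 alternatives of scaling, spot weight and spot choice, the calls of Apln and Angpt2 in I/R over sham and in SBP over I/R and of Angpt1 in SBP over I/R held in each on the CPM scale, as did that of Angpt1 in the Ankrd1-high class of I/R, and of SBP, over 10. For Angpt2, leaving out the richest 1% of spots could not weaken the calls. Those spots held 79.3% of its UMIs in sham and 89.3% in SBP, against 35.9% in I/R. Between sections, 154 of 195 alternative values lay within the counting interval of the reported value, 41 lay outside and 0 reversed a call. For Ankrd1-high spots these were 222, 27 and 1 of 250. The totals hold settings that could hardly move a value, as the filter on spots left out few. No filter and a minimum of 1000 UMIs per spot each kept 28 of 28 values within between sections, and 25 of 25 for Ankrd1-high spots. TMM and median-of-ratios factors each kept 14 of 28, and the region set by injury genes 9 of 25.

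TMM moved all log2 ratios by -0.23 in I/R over sham, 0.16 in SBP over I/R and -0.07 in SBP over sham. Without mitochondrial UMIs, with TMM or with median-of-ratios factors, 1 gene in place of 0 was lower in I/R than in sham and 3 in place of 1 were lower in SBP than in sham, as they were without the 1% of spots richest in the gene. With equal weight per spot 1 gene (Angpt1) was higher in SBP than in sham and the Kdr call was lost (-0.56). In Ankrd1-high spots of I/R the genes called higher went from 2 to 0 without mitochondrial UMIs (also in the Ankrd1 level), with equal weight, without the top 1% of spots or at 2-fold, and to 1 at 200 UMIs, at another sham percentile (90th or the higher one tried) or in the top 20% of spots. Those lower there went from 1 to 2 without mitochondrial UMIs. At 200 UMIs per gene 1 gene in place of 3 was higher in I/R than in sham. At 2-fold, 0 were higher and 1 lower in SBP over I/R, and 0 lower in SBP over sham. In Ankrd1-high spots of sham the 4 genes called lower became 1 at 2-fold or the 90th percentile and 0 in the top 20%. In those of SBP they became 2 with Ankrd1 per UMI without mitochondrial genes. Setting the region by injury genes reversed Apln in sham from -2.11 to 1.05 and gave 1 higher and 1 lower gene in sham, 3 higher and 2 lower in I/R, and 1 higher and 2 lower in SBP. The limits of 200 UMIs and 2-fold remove calls by construction, and those of Angpt2 and Angpt1 in SBP over I/R did not reach 2-fold. Other causes were not tested.

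Esm1 and Angpt2 rest on at most 78 UMIs in a section, so differences between sections inside and outside the injury-gene spots were not detectable for them. Animal, section plane and treatment cannot be told apart.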
